A study of Mus musculus with 11 samples.

Results

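Mature oligodendrocytes of the mouse cortex were described in 11 mice, with 1 library of sorted nuclei per mouse. The labels give all of them as female, whereas the study's methods state that sequencing used males, and this disagreement was not settled. A nucleus was taken as a mature oligodendrocyte when it had 300 to 8000 genes, at most 5% mitochondrial UMIs, at least 3 of the 6 transcripts Mag, Mog, Prr5l, Sec14l5, St18 and Mobp, at most 1 UMI of the excitatory neuron gene Slc17a7, and none of the precursor gene Pdgfra or the microglial gene Csf1r. UMIs are molecular tags that let each captured RNA be counted once. The members were thus chosen by measured UMIs of these genes, in all mice alike. Of 112539 nuclei that passed the limits on genes and mitochondrial UMIs, 20356 (18.1%) met this rule, with 1171 to 2896 in each mouse.

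The mice came from crosses of the Tau-P301S (PS19) line, which carries a transgene for mutant human tau, with lines that change IKKβ (gene Ikbkb), the kinase that activates NF-κB. NTG mice lacked the tau transgene and had IKKβ at its normal level (ikbkb+/+, n = 4, aged 9.8 to 10.85 months). P301S mice carried the transgene with normal IKKβ (n = 3, 9.15 to 10.75 months). KO P301S mice carried tau and had lost Ikbkb in microglia (n = 2, 8.39 and 9.15 months), and CA P301S mice carried tau and expressed constitutively active IKKβ in microglia (n = 2, 9.8 and 10.85 months). In both of these groups the change was made by Cx3cr1-CreERT2, an inducible Cre recombinase that acts in microglia and not in oligodendrocytes. The NTG and P301S mice had no Cre but still carried floxed Ikbkb or silent IkbkbCA alleles. According to the study's methods the Cre-free littermates received tamoxifen as well. The methods give KO P301S and CA P301S mice as Cx3cr1 CreERT2/+ and the NTG and P301S mice as Cx3cr1 +/+. Contrasts of KO P301S or CA P301S with P301S mice thus differ in the Cx3cr1 allele and Cre as well as in IKKβ. All KO P301S mice were of the floxed Ikbkb line and all CA P301S mice of the IkbkbCA line. NTG replicates 1 and 2 and P301S replicates 1 and 2 were of the floxed line, and the remaining NTG and P301S mice were of the IkbkbCA line. The labels do not name litters, and p-values measure the spread between these mice.

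Oligodendrocytes wrap axons in myelin, a stack of lipid-rich membrane held together by proteins such as myelin basic protein (Mbp), and they make much of the cholesterol that this membrane needs. They also pass lactate to axons and take up potassium. They arise from precursor cells (OPCs, marked by Pdgfra) through a newly formed stage, and under amyloid, tau or demyelinating injury some of them express complement C4b, the protease inhibitor Serpina3n, class I antigen presentation genes and Il33, a state called disease-associated oligodendrocytes. The comparisons ask whether the tau transgene, and IKKβ in the neighbouring microglia, alter these cells.

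The 6 genes of the rule were not used as evidence. St18 was detected in 98.4% of the selected nuclei, Prr5l in 98.5%, Mobp in 86.3%, Mag in 84.1%, Sec14l5 in 78.4% and Mog in 77.0%. Myelin and lineage genes that the rule did not use were also present: Mbp in 98.9%, the tight junction gene Cldn11 in 59.9%, Opalin in 42.7%, and the transcription factors Sox10 and Myrf in 39.5% and 33.3%. RNA of other glial types varied by gene. The defining markers were rare, with Aqp4 (astrocytes) in 1.24%, Cldn5 (endothelium) in 0.108%, P2ry12 (microglia) in 2.03% and C1ql1 (OPCs) in 0.157%. Other members of the same lists were frequent, among them Pcdh15 (OPC list) in 64.0% and Slc1a3 and Gpc5 (astrocyte list) in 30.3% and 25.1%. Summed over the list, OPC markers stood at 946 to 1206 CPM (counts per 1e6 UMIs) and astrocyte markers at 399 to 697 CPM. Neuronal RNA was more frequent. Gad1 of inhibitory neurons was found in 7.11% and the synaptic gene Syt1 in 90.4% of the nuclei.

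Most of the nuclei were far from the threshold, since 9667 held all 6 markers, 6731 held 5, 2908 held 4 and 1050 held exactly 3. Outside it, 2394 nuclei held exactly 2. Mbp was detected in 87.4% of nuclei with 3 markers and 44.6% of those with 2, and the neuronal gene Rbfox3 in 27.0% and 69.9%, respectively. Nuclei from doublets were not removed, and 94 of the selected nuclei had over 20000 UMIs. There were 16 and 23 of these in the KO P301S mice, and 0 to 11 in each other mouse. Any 2 libraries shared at most 44 barcodes, and at most 0.424% of the smaller library.

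Libraries held 72007219 to 93205362 UMIs, and the selected nuclei contributed 3268445 to 8449626 per mouse, with a median of 1950 to 3000 UMIs and 1160 to 1617 genes per nucleus. The first 2 principal components of the summed counts held 23.1% and 19.5% of the variance. NTG replicate 3 stood apart on the first, at 22.8, with the other mice between −12.5 and 8.41. On the second, 4 of the 5 mice of the IkbkbCA line lay at −10.7 to −9.54 and the floxed mice at 0.35 to 9.63, while NTG replicate 3, of the IkbkbCA line, was at 11.4. The line moves with the contrasts of KO P301S and CA P301S mice and was a covariate only in an alternative fit.

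The share of nuclei that were mature oligodendrocytes did not differ detectably between the genotypes. It was 15.6%, 17.3%, 12.6% and 18.5% in the NTG mice (mean 16% ± 2.54 SD, n = 4), and 16.3%, 23.7% and 18.8% in the P301S mice (19.6% ± 3.78, n = 3). KO P301S mice had 18.2% and 16.5%, and CA P301S mice had 19.4% and 19.6%. All groups overlapped with P301S or lay inside its range. P301S exceeded NTG by 3.61 percentage points (exact permutation test, two-sided, p = 0.2, smallest possible p 0.0286), and all 7 tau-carrying mice exceeded NTG by 2.94 points (exact permutation p = 0.0939, adjusted p = 0.376 over 4 contrasts). KO P301S minus P301S was −2.24 points (exact permutation p = 0.6) and CA P301S minus P301S was −0.120 points (exact permutation p = 1). With 3 mice against 2 the smallest possible p is 0.1, so these 2 contrasts could not reach 0.05, and the sign of the CA difference changed when 2 or 4 markers were required in place of 3.

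**Figure D1:**
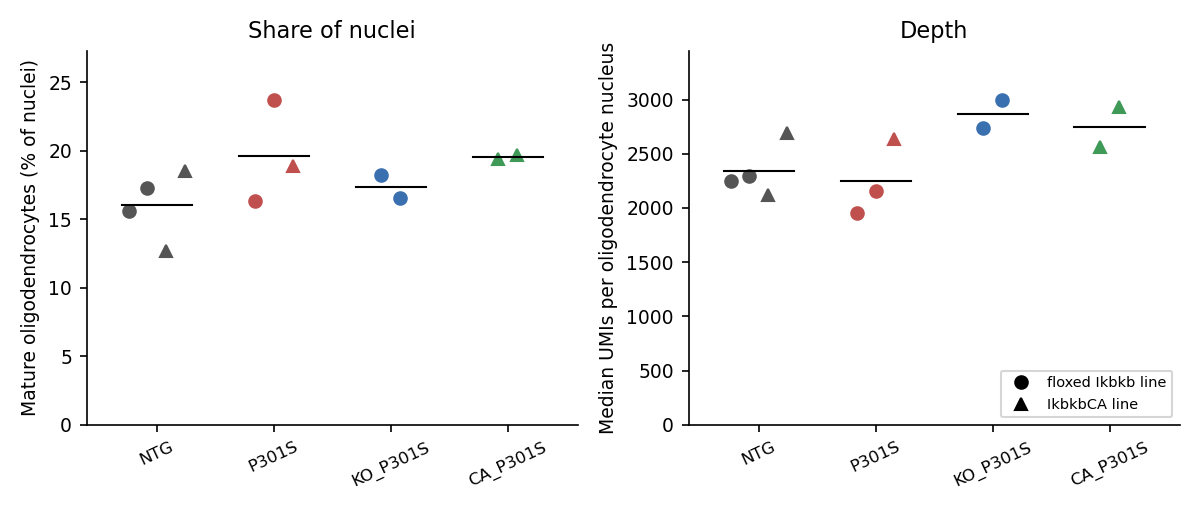
Share of nuclei selected as mature oligodendrocytes (left, % of nuclei that passed the limits) and median UMIs per selected nucleus (right), with 1 point per mouse and a bar at the group mean; circles are the floxed Ikbkb line and triangles the IkbkbCA line. Shares overlap between groups, and both KO P301S mice lie above all 3 P301S mice in median UMIs (2739 and 3000 against 1950 to 2637).

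Depth per nucleus was higher in both groups with altered microglial IKKβ than in P301S mice, and neither difference passed the test. Median UMIs per selected nucleus were 1950, 2159 and 2637 in P301S mice, and 2739 and 3000 in KO P301S mice, so that the groups did not overlap (difference 621 UMIs, exact permutation p = 0.2, with 0.1 the smallest possible). They were 2566 and 2932 in CA P301S mice, which overlapped with P301S (difference 500 UMIs, exact permutation p = 0.3), and 2115 to 2688 in NTG mice.

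To ask what differed with the tau transgene, counts were summed over the selected nuclei of each mouse and tested gene by gene. Of 14231 genes tested with edgeR's quasi-likelihood test, 2 rose in P301S mice against NTG (0.0141% called) and 0 fell, where a call needs p under 0.05 after Benjamini-Hochberg adjustment and a log2 fold change beyond 0.1 in size. DESeq2 called the same 2 genes, and 608 genes (4.27%) had an unadjusted p under 0.05. The 2 groups did not overlap for 4.24% of all genes, 2.22% higher and 2.02% lower in P301S. The 2 genes were Ndst4 and Gm43049, and both were also called when all 7 tau-carrying mice were set against NTG (0.0141% called, with 3.72% of genes at an unadjusted p under 0.05).

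Ndst4 (ENSMUSG00000027971, mm10 chr3:125404076-125728899, plus strand) encodes an N-deacetylase/N-sulfotransferase that modifies heparan sulfate, the sulfated sugar chain of cell surface and matrix proteoglycans. Levels are given as CPM, the counts scaled to 1e6 summed UMIs per mouse after TMM normalization. Levels in strata of nuclei, in other cell types and summed over marker lists, and limits at 0, carry no TMM scaling. These were scaled to the UMIs of the nuclei summed. Ndst4 had 42.1, 38.3, 17.0 and 42.6 CPM in the NTG mice. It had 258, 262 and 259 CPM in the P301S mice, 230 and 177 in the KO P301S mice, and 251 and 218 in the CA P301S mice. Every tau-carrying mouse was far above every NTG mouse, and the 3 P301S mice differed little among themselves (260 ± 2.23, SD, n = 3, against 35.0 ± 12.1, n = 4). P301S minus NTG was 2.86 ± 0.20 on the log2 scale (SE, a 7.26-fold difference, edgeR adjusted p = 2.31e-05), and all tau-carrying mice minus NTG was 2.69 ± 0.18 (6.46-fold, edgeR adjusted p = 1.48e-05). The lowest NTG value came from replicate 3, and the P301S difference was between 2.67 and 2.96 with any 1 mouse left out. Within the floxed line P301S mice had 258 and 262 CPM against 42.1 and 38.3, and within the IkbkbCA line 259 against 17.0 and 42.6.

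A sum over nuclei cannot tell fewer nuclei with a transcript from less RNA in each. The share of selected nuclei with an Ndst4 UMI was 3.07% to 10.5% in the NTG mice and 40.6% to 44.9% in the 7 tau-carrying mice. After each nucleus was thinned to 1000 UMIs, which removes differences in depth, the shares were 1.30% to 4.40% and 18.0% to 23.9%. The nuclei were also split by marker number, Opalin, Il33 and Ptgds, and the difference was present on both sides of each split. The splits divide the same nuclei, and the first counts the rule's own markers, so they are not separate lines of evidence. In nuclei with 5 or 6 markers, Ndst4 stood at 17.8 to 44.0 CPM in NTG mice and 189 to 279 in tau-carrying mice, and in nuclei with 3 or 4 markers at 11.7 to 49.0 and 107 to 240. Among thinned nuclei with an Opalin UMI, 1.22% to 5.03% held Ndst4 in NTG mice and 20.8% to 27.0% in tau-carrying mice, and among those without Opalin 1.32% to 4.39% and 17.4% to 23.3%. Splits by Il33 or Ptgds gave like values, with tau-carrying mice at 16.9% or more in each stratum and NTG mice at 5.48% or less.

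The same gene was compared in the astrocytes (6427 nuclei) and OPCs (2785 nuclei) of these mice, by a test of the difference between the responses. The fit had a term for each mouse, since both cell types came from the same mice. In OPCs Ndst4 stood at 10.0 to 21.2 CPM (without TMM scaling) in NTG mice and 12.5 to 20.7 in tau-carrying mice, and in astrocytes at 10.6 to 41.7 and 8.90 to 30.7. The oligodendrocyte response exceeded that of astrocytes by 3.22 ± 0.37 on the log2 scale in the P301S contrast (edgeR adjusted p = 0.00147, 0.00696% of 14375 genes called) and that of OPCs by 2.53 ± 0.23 (edgeR adjusted p = 1.35e-06, 0.00769% of 12999 genes called). Ndst4 was the 1 gene called in each. With all tau-carrying mice against NTG, 3 genes differed from OPCs (0.0231% called), Ndst4 among them. Excitatory neurons stood at 33.1 to 146 CPM in NTG and 15.6 to 91.7 in tau-carrying mice, and microglia at 11.8 to 55.9 and 15.3 to 37.1. For these last 2 types no test was run.

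**Figure D2:**
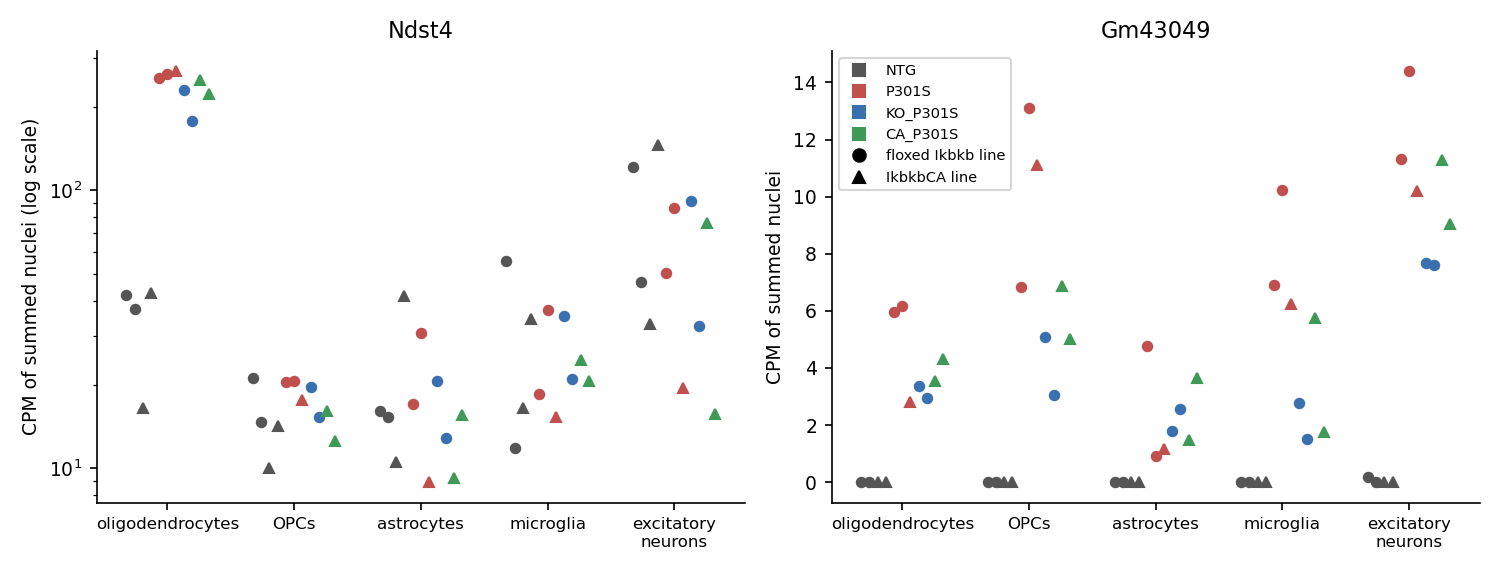
Ndst4 (left, log axis) and Gm43049 (right) in CPM of the summed nuclei, without TMM scaling, per mouse in 5 cell types; colours are genotypes, circles the floxed Ikbkb line and triangles the IkbkbCA line. In oligodendrocytes the 7 tau-carrying mice lie at 177 CPM of Ndst4 or more and the NTG mice below 43, with overlap in the other types, and Gm43049 is at or near 0 in NTG mice of every type.

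Gm43049 (ENSMUSG00000105777, mm10 chr3:140692038-140760704, minus strand) is a long intergenic non-coding RNA, 15 Mb beyond Ndst4 on the same chromosome. The selected nuclei of the 4 NTG mice held 0 UMIs, which allows up to 0.152 CPM over that group (3 counts). Each tau-carrying mouse held 15 to 52 UMIs, 199 in all. These were 6.07, 6.16 and 2.71 CPM in P301S, 3.39 and 2.92 in KO P301S, and 3.58 and 4.25 in CA P301S mice. Against the limit, P301S mice were at least 32.9-fold higher (edgeR adjusted p = 0.0104), and all tau-carrying mice at least 27.8-fold (edgeR adjusted p = 0.0119). The transcript was not particular to oligodendrocytes, since OPCs of NTG mice also held 0 UMIs and those of tau-carrying mice 3.07 to 13.1 CPM (edgeR adjusted p = 0.00454 for P301S against NTG). Excitatory neurons of tau-carrying mice held 7.62 to 14.4 CPM, astrocytes 0.930 to 4.77 and microglia up to 10.2. In nuclei with 5 or 6 oligodendrocyte markers, tau-carrying mice stood at 2.52 to 5.47 CPM and NTG mice at 0. The call was not stable at these counts. With the 18087 nuclei that held fewer than 2 UMIs of 9 markers of other types the edgeR adjusted p was 0.204, and without P301S replicate 2 it was 0.0557.

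Both called genes lie on chromosome 3, which holds 734 of the 14231 tested genes (5.16%). Of the 20 genes with the smallest p, 6 lay on it in P301S minus NTG and 4 for all tau-carrying mice, against 1 in KO P301S minus P301S and 3 each in CA P301S minus P301S and CA P301S minus KO P301S. Every tau-carrying mouse carries the transgene together with its insertion site and any stretch of chromosome linked to it. A response to tau and an effect of the locus cannot be told apart in this design, and the insertion site was not examined.

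The disease-associated oligodendrocyte genes leaned upwards in P301S mice but varied widely between mice, and none passed the test. Of the 17 genes of this list that were tested, 0 were called (0.0141% of all genes), 16 had a positive log2 fold change and the median was 0.30, against 6848 of 14231 and a median of −0.01 over all genes tested. The complement gene C4b had 10.0, 8.90, 15.4 and 43.4 CPM in NTG mice and 30.3, 16.8 and 133 in P301S mice, with a log2 difference of 1.57 ± 0.73. These groups overlapped through NTG replicate 4. Within the floxed line P301S mice had 30.3 and 16.8 CPM against 10.0 and 8.90 in NTG mice. Within the IkbkbCA line P301S replicate 3 alone had 133 against 15.4 and 43.4. The share of all genes that separate in this way was not counted. C4b also differed between the 2 KO P301S mice (88.7 and 11.7 CPM) more than between the 2 CA P301S mice (56.1 and 55.9). Without P301S replicate 3 the C4b difference was 0.18. C4b was not shown to be particular to oligodendrocytes. Astrocytes held 32.2 to 73.1 CPM (without TMM scaling) in NTG and 33.0 to 164 in P301S mice. The oligodendrocyte response exceeded that of astrocytes by 0.63 ± 0.39 (edgeR adjusted p = 0.955) and that of OPCs by 1.04 ± 0.47 on the log2 scale, and neither passed.

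Serpina3n, a serine protease inhibitor, had 0.534 to 1.56 CPM in NTG mice and 2.63, 0.829 and 5.0 in P301S mice (1.49 ± 0.65). H2-D1, a class I heavy chain, had 2.86 to 6.94 and 6.07, 4.5 and 13.3 CPM (0.74 ± 0.38). P301S replicate 3 was the highest of all mice for these 2 genes and for C4b. Without it the difference was 0.68 for Serpina3n and 0.12 for H2-D1. The alarmin Il33 showed the least spread. It had 308, 291, 255 and 242 CPM in NTG mice and 348, 319 and 326 in P301S mice, which did not overlap (0.27 ± 0.10; 2.22% of all genes were separate and higher), with an edgeR adjusted p of 1.0. It then stood at 234 and 264 CPM in KO P301S and 334 and 310 in CA P301S mice.

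Other response lists gave the same kind of picture, positive medians without a called gene. For antigen presentation 7 of 8 genes were positive (median 0.34). The lists are not separate, as H2-D1, H2-K1 and B2m of this list are also on the disease-associated list. So are Cdkn1a of the stress list, Plin4 of the glucocorticoid list, Cd9 of the myelin list and Il33 of the list of mature subtype genes. For the interferon response 16 of 20 were positive (median 0.28). For NF-κB targets 8 of 12 were positive (median 0.05). Nfkbia, the NF-κB inhibitor that NF-κB itself induces, had 6.01, 6.05, 13.9 and 6.04 CPM in NTG mice and 21.2, 5.21 and 8.57 in P301S mice. Among stress genes 11 of 15 were positive (median 0.08).

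Of the genes induced by glucocorticoids 13 of 14 were positive, with a median of 0.43, and 1 mouse set the leading values. The chaperone gene Fkbp5 had 29.4, 25.5, 47.3 and 40.4 CPM in NTG mice and 144, 30.9 and 42.4 in P301S mice (1.01 ± 0.40). The kinase gene Sgk1 had 79.1, 73.3, 156 and 99.7 CPM in NTG mice and 304, 94.9 and 97.6 in P301S mice (0.70 ± 0.36). Without P301S replicate 1 the difference was 0.055 for Fkbp5 and −0.067 for Sgk1.

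Myelin and lineage genes had small differences, none of which passed the test. Mbp ranged from 2448 to 3098 CPM over all 11 mice and Cnp from 99.0 to 133. Of 25 myelin genes 17 were positive, with a median of 0.04 and no value over 0.44 in size. The support genes, which handle lactate, potassium, iron and gap junctions, had 10 of 13 positive (median 0.05). Of the lineage transcription factors 8 of 13 were positive (median 0.13), and Sox10 had the lowest value (−0.34 ± 0.18), with 162 to 219 CPM in NTG mice and 94.6, 180 and 159 in P301S mice. Newly formed oligodendrocyte genes were positive in 5 of 9 (median 0.03). Cholesterol synthesis genes were negative in 16 of 24 (median −0.09). No gene of these lists was called.

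Markers of other cell types leaned in this contrast too, and none was called. All 10 excitatory neuron markers were negative (median −0.29), and their summed level was 3790 to 4196 CPM in NTG and 2708 to 3990 in P301S mice. All 8 astrocyte markers were negative too (median −0.33), at 399 to 678 CPM in NTG and 399 to 554 in P301S mice. Endothelial and mural markers were negative in 5 of 6 (median −0.34). Inhibitory neuron markers were positive in 6 of 10 (median 0.10) and OPC markers in 4 of 6 (median 0.17). Of the microglial markers 6 of 7 were positive (median 0.49), with summed levels of 42.2 to 47.3 CPM in NTG and 48.3 to 67.0 in P301S mice. Csf1r was at 0 by the rule, and Slc17a7, which is among the 10 excitatory neuron markers, was held by it to at most 1 UMI per nucleus. The part of these RNAs in the list medians was not tested.

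**Figure D3:**
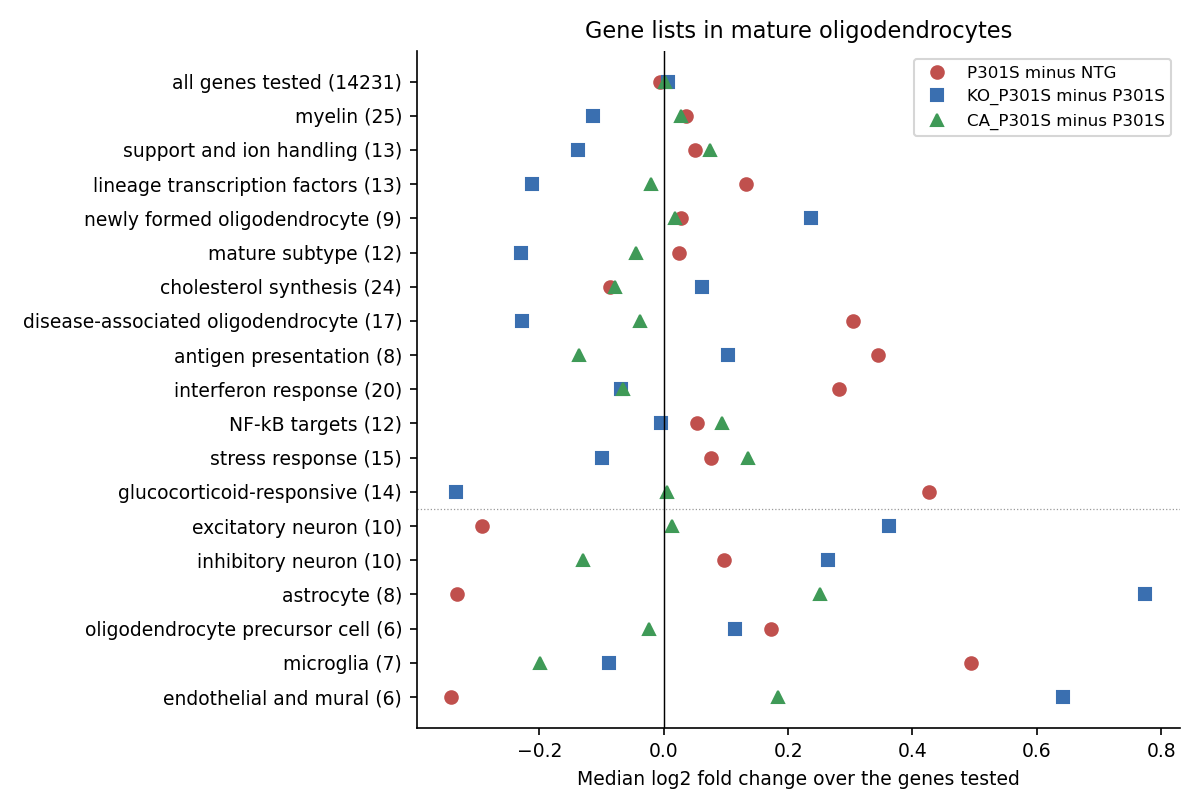
Median log2 fold change over the tested genes of each list in mature oligodendrocytes, for 3 contrasts (circles P301S minus NTG, squares KO P301S minus P301S, triangles CA P301S minus P301S); numbers in brackets are genes tested, and lists under the dotted line are markers of other cell types. Disease-associated oligodendrocyte genes lie at 0.30, −0.23 and −0.04 and astrocyte markers at −0.33, 0.77 and 0.25; the contrasts share the P301S mice, and 0 genes of these lists were called in any.

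None of the targeted or transgene-related genes passed the test in these cells. Ikbkb had 66.1, 60.3, 71.9 and 74.7 CPM in NTG, 58.4, 67.8 and 69.9 in P301S, 62.2 and 67.8 in KO P301S, and 73.1 and 71.9 in CA P301S mice. As the deletion was made in microglia, these values do not check the labels. Both CA P301S mice were above the P301S mice by a small margin (0.15 ± 0.11 on the log2 scale). Mouse Mapt ranged from 1348 to 1739 CPM over all mice. Prnp, whose promoter drives the tau transgene, was too low to test, at 0 to 4 UMIs per mouse.

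Loss of Ikbkb in microglia gave no called gene in oligodendrocytes. In KO P301S minus P301S, 0 of 14231 genes passed with edgeR (0% called, smallest adjusted p = 0.284), while 1880 genes (13.2%) had an unadjusted p under 0.05. DESeq2 called 15 genes, 6 higher and 9 lower, all at an adjusted p of 0.0496. The groups did not overlap for 33.2% of all genes, 16.9% higher and 16.3% lower.

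Lists of the disease-associated and myelin genes had mostly negative values in this contrast. It shares the P301S mice with the contrast against NTG, so that a chance low or high value in those mice enters both. Of the 17 disease-associated genes 16 were negative (median −0.23), against 7003 of 14231 and a median of 0.01 over all genes. Il33 lay below the range of P301S mice (−0.41 ± 0.12, edgeR adjusted p = 0.284). Myelin genes were negative in 20 of 25 (median −0.11), of which 7 did not overlap between the groups (16.3% of all genes were separate and lower). Among them the log2 difference was −0.50 ± 0.17 for the tight junction gene Cldn11 and −0.51 ± 0.18 for the receptor gene Gpr37. Mbp was not among them (0.05 ± 0.11). Negative values were also found for 11 of 13 lineage transcription factors (median −0.21), 9 of 12 mature subtype genes (median −0.23) and 12 of 14 glucocorticoid genes (median −0.33). These lists share genes and are not separate counts. Opalin and Hapln2 are on the myelin and mature subtype lists, and Cd9, Il33 and Plin4 are disease-associated genes that other lists also hold. Cholesterol genes were positive in 15 of 24 (median 0.06).

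Markers of several other types had positive values in the same contrast. All 10 excitatory neuron markers (median 0.36) and all 8 astrocyte markers (median 0.77) were positive, as were 5 of 6 endothelial and mural markers (median 0.64) and 7 of 10 inhibitory neuron markers (median 0.26). The excitatory markers include Slc17a7, which the rule limits. Microglial markers were positive in 3 of 7 (median −0.09). The summed astrocyte markers were 399 to 554 CPM in P301S and 658 to 697 in KO P301S mice, and the excitatory ones 2708 to 3990 and 3967 to 4216. Aqp4 and Gja1 were never at 0. The median depth per nucleus was higher in KO P301S mice, and these mice were on average younger and of the floxed line only. Nuclei with over 20000 UMIs, which may include doublets, numbered 16 and 23 in KO P301S mice and 4, 7 and 0 in P301S mice. The part of depth, age, line and such nuclei in the list medians was not tested.

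Active IKKβ in microglia was accompanied by 2 raised genes in oligodendrocytes. In CA P301S minus P301S, 2 of 14231 genes rose (0.0141% called) and 0 fell, and DESeq2 called 4 (0.0281%). Before adjustment, 563 genes (3.96%) were below 0.05. The 2 genes were Shmt1 and Trim16, and both were called against KO P301S mice too (0.0141% called, DESeq2 0.141%).

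Shmt1 (ENSMUSG00000020534, mm10 chr11:60788104-60811718, minus strand) encodes cytosolic serine hydroxymethyltransferase, which passes carbon units from serine to folate. Its promoter was searched for the κB consensus, the binding sequence of NF-κB, to which active IKKβ signals. The active kinase was expressed in microglia, and an action of NF-κB on Shmt1 in oligodendrocytes was not tested. The window is chr11:60811216-60811515 of GRCm38.p6 on the minus strand, from RefSeq, with capitals marking the 50 bases from the transcription start, which RefSeq sets inside the gene bounds given above.
Shmt1 promoter: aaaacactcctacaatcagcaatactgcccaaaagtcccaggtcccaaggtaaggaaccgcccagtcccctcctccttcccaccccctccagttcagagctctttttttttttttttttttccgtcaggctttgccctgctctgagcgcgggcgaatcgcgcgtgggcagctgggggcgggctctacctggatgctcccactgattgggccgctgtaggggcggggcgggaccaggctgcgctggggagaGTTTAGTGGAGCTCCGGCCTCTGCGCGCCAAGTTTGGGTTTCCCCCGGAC
The κB consensus, searched on both strands, was not found in this window, and it occurs in 2779 of 32851 RefSeq promoters of the same length (8.46%). This says nothing of sites elsewhere or of sequences that depart from the consensus. Of the 4 called genes, Shmt1 was the 1 matched to that promoter table.

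Shmt1 had 24.2 and 21.5 CPM in the CA P301S mice and 4.52 to 7.08 in the other 9 mice, without overlap (9.34% of all genes were separate and higher in CA P301S than in P301S mice). P301S mice had 7.08, 6.04 and 5.57 CPM. The difference was 1.88 ± 0.18 on the log2 scale (3.68-fold, edgeR adjusted p = 0.000433) against P301S and 2.31 ± 0.21 (4.95-fold, edgeR adjusted p = 0.000646) against KO P301S mice. The latter call was lost with age as a covariate (edgeR adjusted p = 0.0830). The 3 mice of the IkbkbCA line without Cre had 6.62, 4.61 and 5.57 CPM. A Shmt1 UMI was found in 6.80% and 7.32% of selected nuclei of CA P301S mice and in 1.46% to 1.95% in the other mice, and after thinning in 2.56% to 2.59% and at most 1.0% in the others. In nuclei with 5 or 6 markers it stood at 22.9 to 24.5 CPM against 4.35 to 7.64, and in nuclei with 3 or 4 at 15.3 to 20.5 against 2.01 to 6.77.

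Trim16 (ENSMUSG00000047821, mm10 chr11:62820231-62850808, plus strand) encodes a tripartite motif protein that takes part in the autophagy of damaged lysosomes. The CA P301S mice had 63 and 66 UMIs (9.40 and 8.02 CPM), while the other 9 mice had 0 to 2 UMIs each and 7 in all. The ratio of CA P301S to P301S mice, which had 3 UMIs in all, was 58.6 (95% counting interval 19.6 to 288), and of CA P301S to all 9 other mice 64.9 (30.6 to 165). The edgeR adjusted p was 0.000148 against P301S and 0.00112 against KO P301S mice. A UMI was found in 2.86% and 2.87% of nuclei against 0% to 0.105%. Against KO P301S mice, which differ from CA P301S mice in line as well as genotype, the call was lost with age (edgeR adjusted p = 0.429) or line (0.753) as a covariate. Against P301S mice it remained in each of 21 alternatives (edgeR adjusted p at most 0.0167).

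Both genes lie on chromosome 11, 2.01 Mb apart. The 30 tested genes between them had log2 fold changes of −0.88 to 0.74 in CA P301S minus P301S, and their smallest edgeR adjusted p was 1.0. The cause of the higher Shmt1 and Trim16 in CA P301S mice was not tested.

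**Figure D4:**
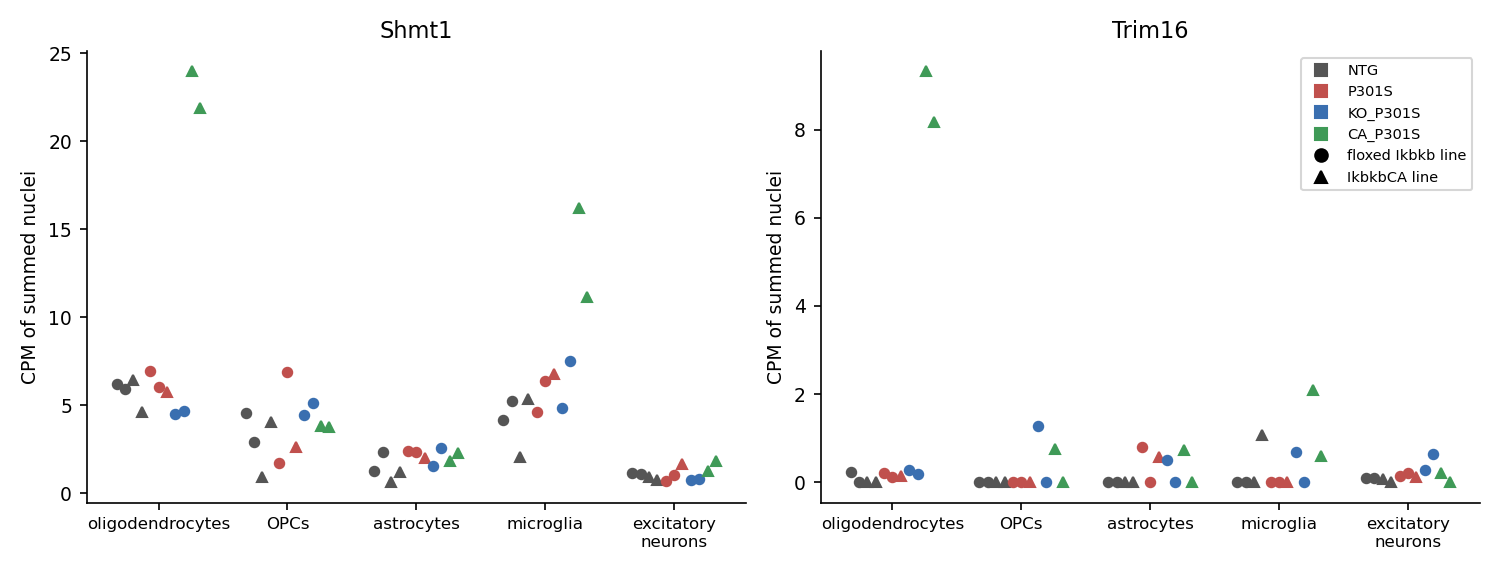
Shmt1 (left) and Trim16 (right) in CPM of the summed nuclei, without TMM scaling, per mouse in 5 cell types; colours are genotypes, circles the floxed Ikbkb line and triangles the IkbkbCA line. Both CA P301S mice stand above the other 9 mice in oligodendrocytes for both genes, and in microglia for Shmt1 (16.2 and 11.2 CPM against 2.06 to 7.50).

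Shmt1 was not shown to be particular to oligodendrocytes. Microglia, where the active kinase is expressed, had 16.2 and 11.2 CPM of Shmt1 in CA P301S mice and 2.06 to 7.50 in the other mice, which was not tested. Astrocytes (1.84 to 2.29 CPM against 0.621 to 2.57) and OPCs (3.75 to 3.82 against 0.909 to 6.89) overlapped. The oligodendrocyte response exceeded that of astrocytes by 1.91 ± 0.49 and that of OPCs by 1.91 ± 0.63 on the log2 scale, and neither difference passed (edgeR adjusted p = 1.0, 0% of genes called in each). Trim16 was sparse elsewhere: in CA P301S mice, astrocytes held 2 UMIs, OPCs 1, excitatory neurons 3 and microglia 5. Excitatory neurons had more UMIs in all than oligodendrocytes in these mice, and the other types had fewer. The Trim16 response was not shown to differ from that of astrocytes (6.14 ± 1.57 on the log2 scale) or OPCs (1.99 ± 9.85), both at an edgeR adjusted p of 1.0. The comparison with OPCs cannot decide this, as OPCs held 0 Trim16 UMIs in P301S mice and 1 in CA P301S mice.

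No listed gene was called in CA P301S minus P301S. The median was 0.03 for 25 myelin genes and −0.04 for 17 disease-associated genes. NF-κB targets were positive in 7 of 12 (median 0.09) and stress genes in 10 of 15 (median 0.14). Cholesterol genes were negative in 18 of 24 (median −0.08). Of the markers of other types, astrocyte genes were positive in 7 of 8 (median 0.25) and endothelial and mural genes in 4 of 6 (median 0.18), and microglial genes were negative in 5 of 7 (median −0.20) and inhibitory neuron genes in 7 of 10 (median −0.13). Their part in the list medians was not tested. The transcription factor gene Sox8 (−0.42 ± 0.11) did not overlap between the groups (8.06% of all genes were separate and lower), and it did not pass. Ndst4 lay below all 3 P301S mice in both CA P301S mice (−0.15 ± 0.22) and both KO P301S mice (−0.35 ± 0.22), and neither difference passed (edgeR adjusted p = 1.0 and 0.498).

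Between CA P301S and KO P301S mice, which share neither line nor age, 1340 genes (9.42%) had an unadjusted p under 0.05, and with 2 mice against 2 the groups did not overlap for 44.8% of all genes, 22.6% higher and 22.2% lower. No listed gene was called. Myelin genes were positive in 21 of 25 (median 0.13), of which 12 were separate and higher, and lineage transcription factors in 10 of 13 (median 0.26). Disease-associated genes were positive in 12 of 17 (median 0.22), of which 7 were separate and higher. Glucocorticoid genes were positive in 12 of 14 (median 0.21), of which 6 were separate and higher. Cholesterol genes were negative in 17 of 24 (median −0.23), of which 15 were separate and lower. All 10 excitatory neuron markers (median −0.29) and 7 of 8 astrocyte markers (median −0.36) were negative, as were 9 of 10 inhibitory neuron markers (median −0.51) and 5 of 6 endothelial and mural markers (median −0.43). The excitatory markers include Slc17a7, which the rule limits. The part of all these markers in the other list medians was not tested.

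Over all 7 tau-carrying mice against NTG the groups did not overlap for 0.457% of genes, 0.267% higher and 0.19% lower. Of the glucocorticoid genes 1 of 14 was separate, and no gene of the myelin, cholesterol, interferon, antigen presentation or disease-associated lists was. Interferon genes were positive in 18 of 20 (median 0.18), disease-associated genes in 14 of 17 (median 0.17) and myelin genes in 14 of 25 (median 0.04), while cholesterol genes were negative in 18 of 24 (median −0.10). All 10 excitatory neuron markers, with the rule-limited Slc17a7 among them, were negative (median −0.20) and 6 of 7 microglial markers positive (median 0.43). Astrocyte markers were positive in 5 of 8 (median 0.06).

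Nuclei were also split by genes that mark states of mature oligodendrocytes, each nucleus thinned to 1000 UMIs (20212 of 20356 nuclei had enough). In the median mouse 28.2% held Il33, 21.3% Opalin, 18.1% Ptgds (prostaglandin D synthase), 3.22% C4b, 0.672% Klk6 (a serine protease) and 0.115% Serpina3n. Excitatory neurons, which should lack these genes, had at most 0.434% for Il33, 0.344% for Opalin, 0.505% for Ptgds, 0.301% for C4b and 0.101% for Klk6 after the same thinning. Serpina3n reached 0.170% in them at most, and its share in the median mouse was not above this highest value. These neurons were chosen with no UMI of the 6 rule markers, which removes nuclei holding stray RNA of those genes. They were also deeper before thinning, with a median of 11326 to 17025.5 UMIs per mouse. Their shares can therefore understate the background in oligodendrocyte nuclei. The share with C4b ranged widely, from 0.753% in NTG replicate 1 to 12% in P301S replicate 3. The other NTG mice had 1.10%, 1.56% and 4.79%, P301S replicates 1 and 2 had 3.22% and 1.82%, KO P301S mice had 7.14% and 1.40%, and CA P301S mice had 5.62% and 5.03%.

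Il33 was found in 29.4%, 28.2%, 24.7% and 23.7% of nuclei in NTG mice and 32.0%, 29.6% and 30.0% in P301S mice, without overlap (exact permutation p = 0.0571). In KO P301S mice it was 25.3% and 25.2%, and in CA P301S mice 29.2% and 27.9%, all below the 3 P301S mice (exact permutation p = 0.1, the smallest possible, and p = 0.2). Ptgds was found in 13.4% to 18.0% in NTG and 18.1% to 26.5% in P301S mice (exact permutation p = 0.0571, and p = 0.0424 for all tau-carrying mice against NTG). Without thinning, NTG and P301S mice overlapped for Il33 and Ptgds. Il33 was then at 51.4% in NTG replicate 1 and 49.0% in P301S replicate 1, and Ptgds at 35.4% in NTG replicate 4 and 33.9% in P301S replicate 2. Opalin was found in 19.1% to 22% in NTG mice and spread from 16.3% to 27.0% in P301S mice. Over the 24 comparisons of 6 genes in 4 contrasts none passed, with a smallest adjusted p of 0.457. The smallest possible exact permutation p was 0.0286 in P301S minus NTG and 0.1 in the KO P301S and CA P301S contrasts. After adjustment over the 24, comparisons in these contrasts could not pass, and only those of all tau-carrying mice against NTG could.

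**Figure D5:**
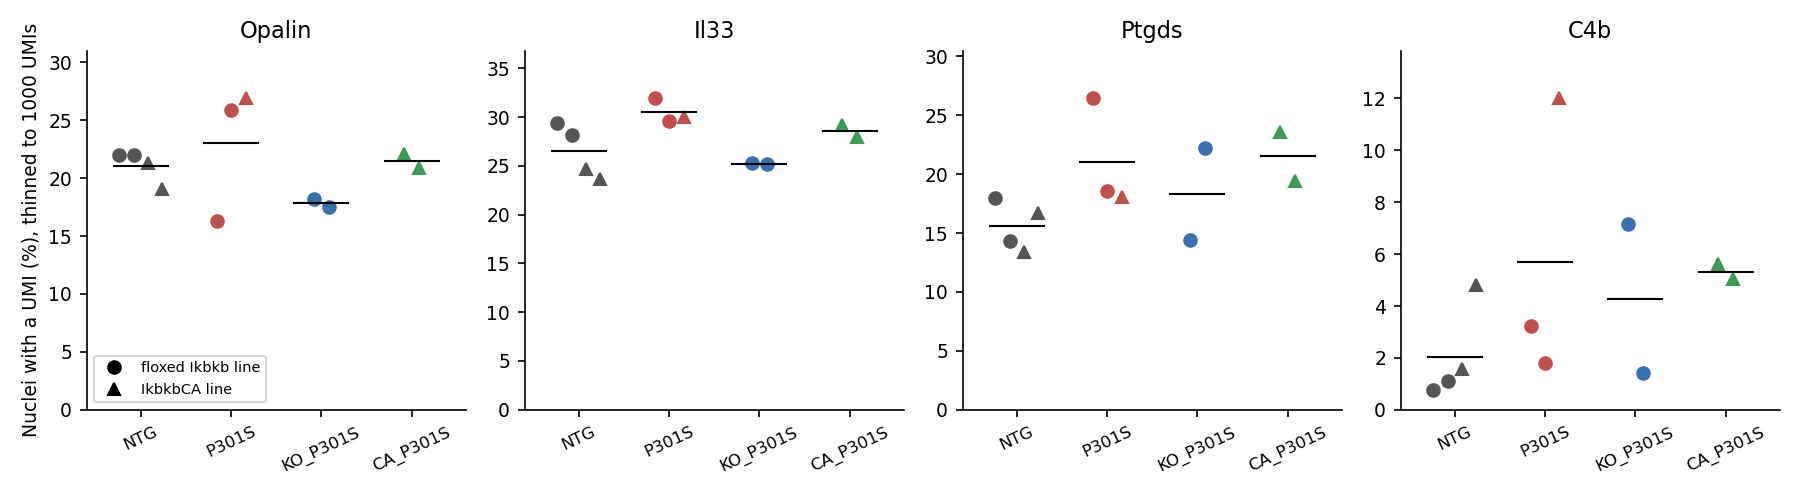
Share of mature oligodendrocyte nuclei with a UMI of Opalin, Il33, Ptgds or C4b after thinning to 1000 UMIs, with 1 point per mouse and a bar at the group mean; circles are the floxed Ikbkb line and triangles the IkbkbCA line. The P301S mice lie above the NTG mice for Il33 and Ptgds, which overlap without thinning, and C4b spans 0.753% to 12% with P301S replicate 3 highest.

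The state genes shared nuclei unevenly. Opalin and Ptgds were found together in 1019 thinned nuclei where 811 would follow from their separate shares in each mouse (ratio 1.26), and Opalin and Il33 in 1403 against 1224 (1.147). Klk6 stood apart from Opalin, with 3 nuclei against 29.6 (0.101), and from Ptgds, with 6 against 25.2 (0.238). C4b occurred with Opalin in 193 nuclei against 192, with Klk6 in 14 against 6.79 (2.06), and with Serpina3n, which is near its background share, in 18 against 2.69 (6.69). These are sums over the 11 mice and were not tested.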

How the data were processed

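Nuclei were sorted by DAPI from frozen cortex and sequenced with the 3′ droplet kit. According to the processing notes and methods, the authors used Cell Ranger 3.1.0 on mm10 with reads on unspliced RNA counted, and deposited raw UMI counts per gene and barcode for each mouse (Seurat 3.0 was used downstream, not here). Genotype came from the labels and the breeding line from the title. For 31053 genes, counts of the selected nuclei were summed per mouse. Genes kept by filterByExpr were fitted with edgeR 4.0.16 (R 4.3.3, TMM, quasi-likelihood, 1 term per genotype, all 11 mice, so groups of 2 borrow the spread of the others), in 5 contrasts. SE is the log2 fold change over the square root of F. Scaling by size factors, no filter, line, age, the title's number, 4 markers, Slc17a7 at 0, fewer than 2 UMIs of 9 markers of other types, thinning and leaving out each mouse were tried as well. DESeq2 1.42.0 was an alternative. The study used MAST on nuclei and removed doublets with DoubletFinder; neither was done here. Astrocytes needed 3 of 6 markers, OPCs Pdgfra and 2 further markers, and microglia Csf1r and 2 further markers. Each of these held fewer than 3 of the oligodendrocyte rule markers. Excitatory neurons needed at least 3 Slc17a7 UMIs and no UMI of the rule markers. Shares and depths, with 1 value a mouse, were tested by permuting the mice (exact, two-sided, on the absolute difference). The members and lists were chosen with earlier results of these data known. Genes named were up to 10 called genes in each direction with groups that did not overlap, called list members, and the rule markers, Mbp, Cnp, Opalin, Sox10, Myrf, Sqle, Serpina3n, C4b, H2-D1, Il33, Ptgds, Klk6, Fkbp5, Sgk1, Nfkbia, Prnp, Mapt and Ikbkb. Some genes of this rule are not reported here. Other listed genes were named after their values were seen. Scripts were tested on simulated data. Intervals and limits at 0 cover counting error only. Coordinates come from GENCODE M21 annotation of the same build.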

Additional observations from a re-analysis of the deposited data

Results flagged for a closer look

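In groups of 4 or more mice, 64 sets of values were checked for a mouse far from its group, at a limit that chance passes in about 1 group in 20, and 7 were found. Ndst4 in NTG replicate 3 was 17.0 CPM, with the other NTG mice at 38.3 to 42.6. Nfkbia in the same mouse was 13.9 CPM, with the others at 6.01 to 6.05. Trim16 in NTG replicate 1 was 0.223 CPM, which is 1 UMI, with the others at 0. Among the 7 tau-carrying mice, P301S replicate 1 had 144 CPM of Fkbp5 (others 30.9 to 49.7), 304 of Sgk1 (94.9 to 183) and 21.2 of Nfkbia (5.21 to 11.6). P301S replicate 3 had 13.3 CPM of H2-D1 (3.52 to 7.20).

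Responses that differed from those of other glia were found for 3 genes with edgeR's interaction test. The Ndst4 response in oligodendrocytes exceeded that in astrocytes by 3.22 on the log2 scale for P301S minus NTG and by 3.20 for all tau-carrying mice minus NTG (adjusted p = 0.000198). It exceeded that in OPCs by 2.53 and 2.57 (adjusted p = 1.88e-07 for the latter). The remaining 2 were differences from OPCs. For all tau-carrying mice minus NTG, the difference was 0.97 ± 0.17 for the receptor gene Ror1 (adjusted p = 0.0499) and −1.13 ± 0.19 for the retinaldehyde dehydrogenase gene Aldh1a1 (adjusted p = 0.0389), with 0.0231% of 12999 genes called. Aldh1a1 rose in OPCs (1.01 ± 0.17, edgeR adjusted p = 0.0363), and in oligodendrocytes it overlapped, at 22.3 to 29.8 CPM in NTG and 19.7 to 35.2 in tau-carrying mice. Ror1 was not called in OPCs (−0.14 ± 0.16, edgeR adjusted p = 0.985), and in oligodendrocytes it stood at 9.77 to 20.03 CPM in NTG and 18.2 to 42.1 in tau-carrying mice.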

How the results depend on the processing

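Ndst4 kept its direction and its call in each of the 21 alternatives, with log2 fold changes of 2.67 to 3.18 in P301S minus NTG and 2.50 to 3.01 for all tau-carrying mice. Shmt1 against P301S mice did so too (1.60 to 2.02). Gene counts were less stable. Below, they are given in the order P301S minus NTG, KO P301S minus P301S, CA P301S minus P301S, CA P301S minus KO P301S, and all tau-carrying mice minus NTG, where the reported counts are 2, 0, 2, 2 and 2. Without a filter on low counts edgeR called 107, 449, 116, 307 and 99 genes, of which 105, 447, 109, 302 and 97 were genes that the filter keeps. The added genes set the median prior degrees of freedom to infinity, against 6.52 with the filter. DESeq2 called 15 for KO P301S minus P301S, 4 for CA P301S minus P301S and 20 for CA P301S minus KO P301S. Thinning left 1 for P301S minus NTG, CA P301S minus KO P301S and all tau-carrying mice, and leaving out nuclei with 2 or more UMIs of other types left 1 for P301S minus NTG and for all tau-carrying mice. Slc17a7 at 0 left 1 for all tau-carrying mice. CA P301S minus KO P301S gave 1 with line and 0 with age as a covariate. With 1 mouse left out the counts ranged over 1 to 2, 0 to 2, 2 to 6, 1 to 10 and 1 to 2. Without NTG replicate 4 there were 6, 10 and, for all tau-carrying mice, 1. Without KO P301S replicate 1 there were 2 in KO P301S minus P301S and 1 for all tau-carrying mice, and without P301S replicate 2 there was 1 in P301S minus NTG. CA P301S minus KO P301S gave 5 without P301S replicate 3, 1 without KO P301S replicate 2 and 4 without CA P301S replicate 1, which also gave 4 in CA P301S minus P301S. A group left with 1 mouse is assumed to vary like the others.

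For all tau-carrying mice, Gm43049 had an edgeR adjusted p of 0.0642 with Slc17a7 at 0, 0.181 under the limit on other types, 0.0579 without NTG replicate 4 and 0.0706 without KO P301S replicate 1. Against KO P301S mice, Trim16 had 0.107 after thinning and 0.0506 and 0.0628 without KO P301S replicates 1 and 2, and Shmt1 0.0830 with age. C4b, Ptgds, Klk6, Fkbp5 and Sgk1 passed without the filter.

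Signs changed as follows. The CA P301S minus P301S share was 0.366 with 4 markers, 0.540 with 2, and −1.79 to 1.93 with 1 mouse left out. Without thinning, CA P301S minus P301S was 0.568 for C4b, 1.89 for Il33 and 3.28 for Opalin, and KO P301S minus P301S was 0.535 for Ptgds. With 1 mouse left out, KO P301S minus P301S ranged over −0.130 to 0.177 for Serpina3n, −4.29 to 1.75 for C4b, −6.68 to 1.16 for Ptgds and −0.254 to 0.104 for Klk6. CA P301S minus P301S ranged over −2.30 to 2.81 for C4b, −4.96 to 0.380 for Opalin and −1.64 to 3.15 for Ptgds, and Opalin over −0.937 to 0.843 for all tau-carrying mice. Sgk1 in P301S minus NTG ranged over −0.067 to 0.98 on the log2 scale. The causes were not tested.

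Fitting the title's replicate number as a block gave counts of 2, 0, 2, 2 and 2. The numbers were not shown to pair the mice. Over 22 pairs with a shared number, of the same or of different lines, the correlation of deviations was −0.17 to 0.17. Of 11 mice 6 correlated best with their own number. Groups of 2 or 3 mice limit what could be detected.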

Other observations

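Genes near Ndst4 on chromosome 3 were looked at after the values were seen. Of the 20 genes with the smallest p in P301S minus NTG, 5 lay within 20 Mb of Ndst4, itself included, since the window was centred on it, where 200 of the 14231 tested genes lie (1.41%). Beside Ndst4 and Gm43049 these were Fam241a (−0.74 ± 0.16 on the log2 scale), Rwdd3 (0.72 ± 0.17) and Casp6 (−1.11 ± 0.29), each at an edgeR adjusted p of 1.0. For all tau-carrying mice against NTG it was 4 of 20. The transgene's insertion site was not examined, and a locus effect cannot be told apart from a response to tau in these mice.

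Mylk, the gene of myosin light chain kinase, was high in 1 mouse of each of 3 genotypes. It had 81.7 CPM in NTG replicate 4, 56.3 in KO P301S replicate 2 and 88.2 in CA P301S replicate 1, with 8.71 in P301S replicate 3 and 2.26 to 5.22 in the other 7 mice.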
